A study of Mus musculus with 36 samples.

Results

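Epididymal white adipose tissue (eWAT) is a visceral fat depot of male mice. It holds adipocytes, which store triglyceride and secrete adipokines, beside macrophages, lymphocytes, endothelial cells and fibroblasts. Under a high-fat diet (HFD), its adipocytes enlarge, and macrophages that take up lipid, called lipid-associated macrophages, gather around dying adipocytes. Cells that are short of sterol release the transcription factor SREBP2 from a complex with INSIG proteins, and SREBP2 turns on the genes of cholesterol synthesis. Here, the eWAT transcriptomes of 3 wild-type (WT) mice fed a 60% HFD and 3 WT mice fed a 40% HFD were compared, all of them with ligature-induced periodontitis (LIP). These 6 libraries were taken by their labels from the 36 of the series.

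The mice of both groups were young male C57BL/6 mice without a transgene, fed their diet for 10 weeks in all. LIP was induced by tying a silk thread around an upper molar on both sides for the last 2 weeks. The other groups used here were ligatured WT mice on a normal diet (ND), WT mice on either HFD without ligature, and ligatured CCL19-KI mice on either HFD, with 3 mice each. In CCL19-KI mice, *Ccl19* had been knocked into the *Adipoq* locus, so it is driven by an adipocyte promoter. The lymph nodes of the depot had been removed before RNA extraction, according to the methods of the study. The design text speaks of ligature in every group, whereas the labels give it to some, and the labels were followed.

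Expression was given as edgeR-normalized CPM, which are reads scaled to the size of the library. The 6 libraries held 12009475 to 16690271 reads, and a single read was worth 0.0631 to 0.0803 normalized CPM. Any 2 mice of a group differed by far more than sampling noise, with a chi-square per degree of freedom of 34.8 to 129. The summed level of 12 adipocyte genes was 26517, 29059 and 34553 normalized CPM in the 40% HFD mice and 24226, 16266 and 13298 in the 60% HFD mice, so fat tissue was present in each library. RNA of other organs was present as well and varied between the mice. A sum of 20 hepatocyte genes was 9779, 589 and 30711 under the 40% HFD and 20199, 15643 and 47015 under the 60% HFD. A sum of 12 kidney tubule genes was 10.3, 9.17 and 8.26 under the 40% HFD and 80.8, 284 and 16.0 under the 60% HFD. Counts from fits with these 2 scores as covariates are given for the main groups of genes. The kidney tubule sums of the 2 diets did not overlap, so a fit with that score can take up part of the difference between the diets. A change of a count in such a fit cannot tell kidney RNA and diet apart.

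The fit was made with limma on log2(normalized CPM + 1) over the 18 ligatured mice, with 16653 genes tested. A log2 fold change is the mean of the 60% HFD mice minus that of the 40% HFD mice on this scale, with its standard error (SE), and a fold is taken from it. For genes of few reads, the added 1 draws the fold towards 1. Differentially expressed genes (DEGs) are those that met the criteria of the study, a ratio above 1.5 or below 0.67 (bounds included) with p up to 0.05 before adjustment. By these criteria, 727 genes were DEGs (4.37% of those tested), of which 393 (2.36%) were higher and 334 (2.01%) were lower in the 60% HFD mice. With quantile normalization, which moved the median over all genes from 0.005 to -0.053, 334 were higher and 421 were lower, and with the kidney tubule score as a covariate, 163 and 289. No gene had a Benjamini-Hochberg adjusted p below 0.05 in limma or in edgeR, while 1506 genes in limma (9.04%) and 1457 in edgeR (8.75%) had an unadjusted p below 0.05. edgeR on the recovered reads gave 845 DEGs (5.07%), 399 higher (2.4%) and 446 lower (2.68%). The lowest adjusted p was 0.0566 in limma, shared by *Phlda1*, *Fam13a* and *Rnu3a*. The DEGs below are therefore differences that did not hold up after adjustment for all genes tested. Their p-values weigh a difference against the spread within groups, pooled over the 18 ligatured mice. In bulk tissue, fewer cells of a type and less RNA per cell cannot be told apart.

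Most genes of cholesterol synthesis were higher DEGs. Of 18 genes, 11 were DEGs that were higher in the 60% HFD mice, against 2.36% of all genes tested, and none was lower. In each of the 11, the highest 40% HFD mouse was below the lowest 60% HFD mouse, which was so in 7.75% of all genes. The log2 fold change was above 0 in 18 of 18 genes, with a median of 0.77, against 50.7% of genes and a median of 0.005 over all genes tested.

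**Figure D1:**
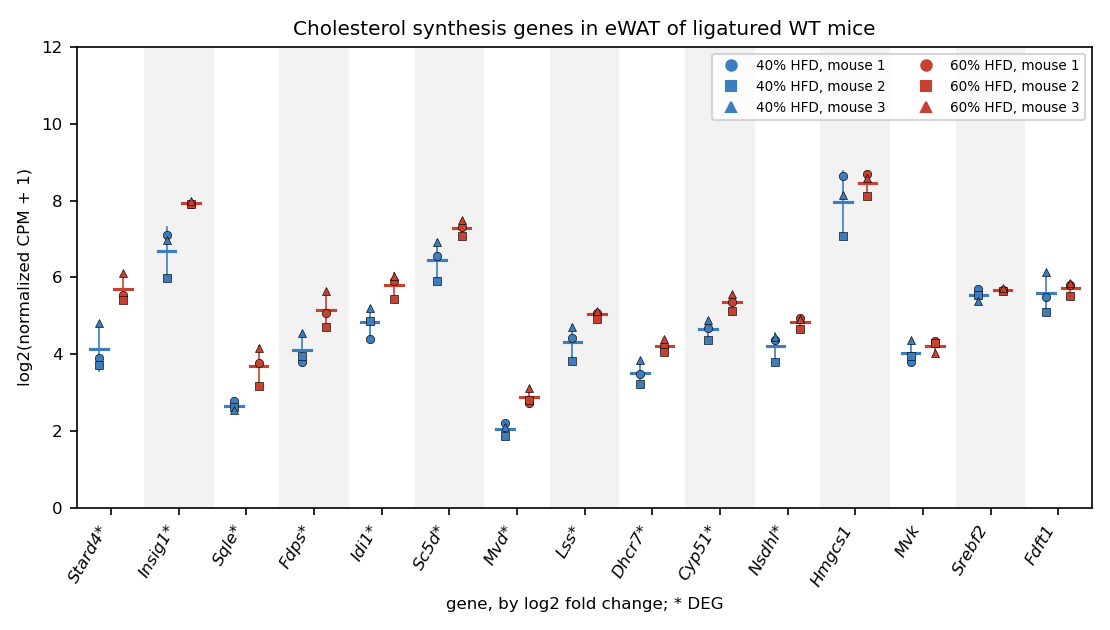
Level of 15 of the 18 cholesterol synthesis genes in the 6 mice, as log2(normalized CPM + 1) on the vertical axis, with genes ordered by log2 fold change. Each point is a mouse, horizontal lines are means with bars of 1 SD, and an asterisk marks the 11 DEGs, in which the 60% HFD mice lie above the 40% HFD mice.

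The promoters of these genes were read for short motifs, because SREBP2 is known to bind the sterol regulatory element together with NF-Y, which binds CCAAT. RefSeq promoter windows of GRCm38.p6, from 250 bases before to 50 bases after the start, were at hand for 11 of the 18 genes. All 11 held CCAAT on one or the other strand, against 41.1% of 27025 promoters. Those of *Insig1*, *Mvd*, *Lss*, *Cyp51*, *Dhcr7*, *Idi1*, *Nsdhl* and *Sc5d*, which were DEGs, held it as did those of *Hmgcs1*, *Mvk* and *Srebf2*, which were not. The letters TCACNCCAC of a sterol regulatory element, searched on both strands, were in 1 of the 11 windows, that of *Hmgcs1*, against 1.44% of all promoters. These matches describe the letters of a window and do not show binding. The stretches around CCAAT are shown for the 4 DEGs of smallest p, with the motif in capitals (ATTGG is CCAAT on the other strand), and the stretch of *Hmgcs1* with its sterol element in capitals, each 5′ to 3′ on the strand of its gene.
Insig1, chr5:28071166-28071230, plus strand: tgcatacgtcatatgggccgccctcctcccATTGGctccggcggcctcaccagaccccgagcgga
Mvd, chr8:122443448-122443512, minus strand: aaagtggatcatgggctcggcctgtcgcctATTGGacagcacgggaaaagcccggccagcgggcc
Lss, chr10:76531513-76531577, plus strand: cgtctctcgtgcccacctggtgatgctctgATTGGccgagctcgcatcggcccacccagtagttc
Cyp51, chr5:4104698-4104756, minus strand: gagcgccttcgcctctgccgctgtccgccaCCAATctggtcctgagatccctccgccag
Hmgcs1, chr13:119690184-119690252, plus strand: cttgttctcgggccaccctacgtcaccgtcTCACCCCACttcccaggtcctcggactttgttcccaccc

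*Insig1*, which encodes the protein that holds SREBP in the endoplasmic reticulum and is itself an SREBP target, had the smallest p of the list. In GRCm38, its gene spans bases 28071363 to 28078662 of chromosome 5 (plus strand). Its level was 138, 62.9 and 125 normalized CPM in the 40% HFD mice and 238, 242 and 254 in the 60% HFD mice, a 2.37-fold difference (log2 fold change 1.24, SE 0.24, adjusted p = 0.317, limma). The 60% HFD mice were nearly equal, while mouse 2 of the 40% HFD group had less than the other two. *Mvd*, which makes isopentenyl diphosphate from mevalonate diphosphate, was 3.66, 2.66 and 3.29 under the 40% HFD and 5.57, 6.02 and 7.77 under the 60% HFD (log2 fold change 0.82, SE 0.17, adjusted p = 0.317, limma). *Sqle*, which makes squalene epoxide and is a rate-limiting step of the later pathway, was 5.86, 5.12 and 4.81 against 12.6, 7.95 and 17.0 (1.06, SE 0.29). *Stard4*, a carrier of cholesterol between membranes, was 13.8, 12.3 and 27.3 against 45.9, 41.8 and 68.1, a 2.92-fold difference. It had the largest log2 fold change of the 11 (1.55, SE 0.53, adjusted p = 0.484).

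Most of the other DEGs act between mevalonate and cholesterol. The log2 fold change was 0.96 for the isomerase *Idi1*, 1.04 for farnesyl diphosphate synthase *Fdps*, 0.72 for lanosterol synthase *Lss* and 0.71 for the lanosterol demethylase *Cyp51*. It was 0.63 for *Nsdhl*, 0.83 for *Sc5d* and 0.71 for *Dhcr7*, which act on the later sterols. *Hmgcs1*, which makes HMG-CoA at the entry to the pathway, was 399, 133 and 283 against 409, 277 and 386 (0.51, SE 0.33), and it was not a DEG. The groups overlapped in it, with mouse 2 of the 40% HFD group the lowest. The transcription factor *Srebf2* was 51.3, 45.5 and 40.7 against 50.1, 49.0 and 52.0, a log2 fold change of 0.14. *Mvk* (0.18) and *Fdft1* (0.13) were not DEGs.

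The number of higher DEGs of this list was 9 to 13 when 1 mouse was left out, except without mouse 2 of the 40% HFD group, where it was 6. *Insig1*, *Mvd*, *Sqle*, *Stard4* and *Idi1* met the criteria in all 6 of these fits. With the hepatocyte score as a covariate the number was 8, with the kidney tubule score 10, with both scores 11 and in edgeR 11.

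Most genes of lipid-associated macrophages were DEGs too. Of 15 genes, 11 were higher and 1 was lower in the 60% HFD mice, against 2.36% and 2.01% of all genes tested, and the median log2 fold change was 1.26. In 9 of the 11, the groups did not overlap, against 7.75% of all genes in this direction. The summed level of the list was 819, 779.8 and 741 normalized CPM in the 40% HFD mice and 975, 1661 and 2380 in the 60% HFD mice. Within the 60% HFD group, mouse 3 had the most and mouse 1 was close to the 40% HFD mice.

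*Atp6v0d2*, a subunit of the proton pump of lysosomes in macrophages and osteoclasts, had the largest log2 fold change of the list. It lies on chromosome 4 from 19876841 to 19922605 on the minus strand. Its level was 6.22, 5.88 and 2.65 in the 40% HFD mice and 13.9, 77.6 and 120.3 in the 60% HFD mice, a 9.23-fold difference (3.21, SE 0.92, adjusted p = 0.467, limma). Each 60% HFD mouse was above each 40% HFD mouse, although mouse 1 of the former was far below the other two. *Gpnmb* (chromosome 6, 49036546 to 49070929), a membrane glycoprotein of lipid-laden macrophages, was 35.6, 26.8 and 18.0 against 58.2, 210.3 and 474 (2.75, SE 0.88, adjusted p = 0.484). The ligatured ND mice had 28.9, 28.0 and 33.3 of it, within the range of the 40% HFD mice. *Lgals3*, a lectin that binds damaged lysosomes, was 128, 119 and 78.8 against 172, 359.6 and 533 (1.59, SE 0.48, adjusted p = 0.481).

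*Trem2*, the lipid receptor that defines these macrophages, was 13.3, 11.8 and 5.53 under the 40% HFD and 14.1, 47.1 and 57.6 under the 60% HFD (1.72, SE 0.63, adjusted p = 0.508). The lowest 60% HFD mouse was thus just above the highest 40% HFD mouse. *Mmp12*, the macrophage elastase, was 12.7, 36.7 and 10.2 against 38.7, 120.0 and 310.4 (2.67, SE 1.06), and it was not a DEG without mouse 1 or 3 of the 40% HFD group or mouse 2 or 3 of the 60% HFD group. *Ctsk*, a cathepsin that degrades collagen, was 25.2, 14.8 and 11.3 against 24.7, 80.4 and 71.0 (1.63, SE 0.46), with mouse 1 of the 60% HFD group inside the 40% HFD range. The lipases *Lipa* (0.84) and *Nceh1* (1.00), the fusion protein *Dcstamp* (0.95) and the tetraspanin *Cd9* (0.79) were DEGs as well. *Itgax*, which encodes CD11c, had a log2 fold change of 1.26 (SE 0.62, adjusted p = 0.573) and was not a DEG. *Fabp5* (0.44) and *Cd63* (0.08) did not meet the criteria either. *Acp5*, a phosphatase of macrophages and osteoclasts, was 192, 189 and 199 against 177, 111 and 99.1 (-0.62, SE 0.29, adjusted p = 0.544).

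Without mouse 3 of the 60% HFD group, 5 genes of the list were higher DEGs, and without its mouse 2, 7 were. The number was 8 to 12 in the other 4 fits that left out 1 mouse, and 6 without both libraries numbered 2. It was 9 with the hepatocyte score as a covariate, 4 with the kidney tubule score, 2 with both scores and 12 in edgeR. The lower counts with the kidney tubule score cannot tell kidney RNA and diet apart, because the kidney tubule sums of the diets did not overlap. *Atp6v0d2*, *Gpnmb*, *Lgals3*, *Ctsk* and *Nceh1* met the criteria in all 6 fits that left out a mouse. *Acp5* was a DEG in 1 of these 6 fits, without mouse 1 of the 60% HFD group, and was not one in edgeR.

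*Spp1* encodes osteopontin, a secreted phosphoprotein of macrophages and bone, which the study followed as a link from eWAT to osteoclasts. It lies on chromosome 5 from 104435118 to 104441050 on the plus strand. Its level was 1.61, 1.96 and 4.17 normalized CPM in the 40% HFD mice (2.58 ± 1.39, SD, n = 3) and 3.11, 14.5 and 46.7 in the 60% HFD mice (21.5 ± 22.6, SD, n = 3). Mouse 1 of the 60% HFD group was below mouse 3 of the 40% HFD group, so the groups overlapped. The log2 fold change was 2.08 (SE 0.93, adjusted p = 0.538, limma) and it met the DEG criteria, but an exact two-sided permutation test of the 6 log2 values gave p = 0.2, where 0.1 is the smallest p that 3 mice against 3 can give. *Spp1* was not a DEG without mouse 1 (1.89) or mouse 2 (1.98) of the 40% HFD group, nor without mouse 2 (2.03) or mouse 3 (1.23) of the 60% HFD group. With both scores as covariates, it was 1.28.

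*Spp1* was 0.690, 0.709 and 0.310 in the ligatured ND mice, below each of the 6 HFD mice. In WT mice without ligature, it was 2.78, 0.708 and 2.05 under the 40% HFD and 8.78, 4.84 and 5.30 under the 60% HFD, a log2 fold change of 1.40 (SE 0.87), and here the groups did not overlap. In ligatured CCL19-KI mice, it was 8.35, 28.0 and 1.02 under the 40% HFD and 9.81, 35.2 and 3.95 under the 60% HFD (0.61, SE 0.93). The difference between the diets did not differ from that of ligatured WT mice beyond the spread, with an interaction of 0.69 for the ligature and 1.48 for the genotype, neither of them at an unadjusted p below 0.05. The promoter window of *Spp1* is shown because it was the only one of the 12 lipid-associated macrophage windows at hand with the letters TCACNCCAC, here in capitals.
Spp1, chr5:104435020-104435088, plus strand: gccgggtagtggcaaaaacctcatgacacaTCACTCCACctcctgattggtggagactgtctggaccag

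The lysosomal E-box TCACGTGA was in none of the 11 cholesterol synthesis windows and none of the 12 lipid-associated macrophage windows, against 1.12% of all promoters, and the related TCATGTGA was in those of *Acp5* and *Mmp12*, against 1.15%. Both were searched on both strands. Of 20 lysosomal genes, 4 were higher DEGs, against 2.36% of all genes tested, and none was lower. They were *Atp6v0d2*, *Ctsk* and *Lipa*, which are also in the lipid-associated macrophage list, and *Ctss*, a cathepsin of antigen-presenting cells (0.90, SE 0.35), which was no DEG without mouse 3 of the 40% HFD group (0.66) or mouse 2 (0.80) or 3 (0.78) of the 60% HFD group. All 20 had a log2 fold change above 0, with a median of 0.20. *Ctsd*, the most general of the cathepsins, was 1419, 1232 and 1298 under the 40% HFD and 1393, 1414 and 1309.7 under the 60% HFD (0.06, SE 0.17). The number of DEGs was 2 without mouse 3 of the 60% HFD group and 2 with both scores as covariates.

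Some genes that mark adipocytes were lower DEGs in the 60% HFD mice. Of 12, 5 were, against 2.01% of all genes tested, and none was higher. All 12 had a log2 fold change below 0, with a median of -0.68. *Cfd*, which encodes the complement protease adipsin, was 1648, 3593 and 2714 normalized CPM in the 40% HFD mice and 1182, 473 and 272 in the 60% HFD mice, 4.72-fold lower (-2.24, SE 0.61, adjusted p = 0.467, limma). It lies on chromosome 10 from 79890853 to 79892655 on the plus strand. The ligatured ND mice had 10552, 8444 and 7249.7, so the levels of the 3 diets did not overlap. *Cidec*, which joins lipid droplets into one, was 2658, 2999 and 3761 against 2333, 1485 and 1269.9 (-0.92, SE 0.30, adjusted p = 0.484). Mouse 1 of the 60% HFD group was again the closest to the 40% HFD mice.

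The adipokine resistin, *Retn*, was 822, 805 and 956 against 703, 297 and 253 (-1.19, SE 0.43). *Pnpla2*, the first lipase of triglyceride breakdown, was 1501, 1496 and 1999 against 1328, 909.9 and 716 (-0.79, SE 0.33). *Fabp4*, the fatty acid carrier of adipocytes, was 8151, 10911 and 10109 against 7962, 5948 and 4775 (-0.66, SE 0.30). In these 3 genes the groups did not overlap, but mouse 1 of the 60% HFD group was close to the lowest 40% HFD mouse. Without mouse 2 or mouse 3 of the 60% HFD group, none of the 3 was a DEG, with -1.02 and -0.91 for *Retn*, -0.76 and -0.58 for *Pnpla2* and -0.65 and -0.49 for *Fabp4*. *Pnpla2* was not one without mouse 3 of the 40% HFD group either (-0.65), and *Fabp4* was not without mouse 2 (-0.58) or mouse 3 (-0.63) of that group. *Adipoq*, the gene of adiponectin, was 2786, 3824 and 3937 against 3059, 2291 and 1435 (-0.69, SE 0.37, adjusted p = 0.591), and it was not a DEG. *Lep*, the gene of leptin, was 1689.8, 1083 and 2207 against 1590.1, 1477 and 1494 (-0.07, SE 0.46), while the ligatured ND mice had 247, 411 and 523. *Plin1* (-0.60), *Lipe* (-0.62), *Plin4* (-0.79), *Slc2a4* (-0.38) and the adipocyte transcription factor *Pparg* (-0.34) were not DEGs.

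The number of lower adipocyte DEGs was 2 without mouse 2 and 2 without mouse 3 of the 60% HFD group, and 3 without mouse 3 of the 40% HFD group. It was 9 without mouse 1 of the 60% HFD group and 7 without mouse 2 of the 40% HFD group. It was 4 with the hepatocyte score as a covariate, 2 with the kidney tubule score, 2 with both and 2 without both libraries numbered 2. *Cfd* and *Cidec* met the criteria in every fit that left out a mouse. Of the 11 adipokine genes tested, *Retn*, *Cfd* and *Nrg4* were lower DEGs and *Serpina12* was a higher one, against 2.01% and 2.36% of all genes tested. *Nrg4*, a growth factor that fat releases to the liver, was 63.5, 55.8 and 94.2 against 43.5, 26.3 and 23.0 (-1.19, SE 0.37, adjusted p = 0.484). *Serpina12*, the gene of vaspin, was 1.10, 0.443 and 2.41 against 7.32, 3.37 and 7.51 (1.64, SE 0.57), and it was not a DEG without mouse 2 of the 40% HFD group (1.34).

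Genes of lipid storage and release followed the adipocyte markers in part. Of 14 genes of lipolysis and the lipid droplet, *Pnpla2*, *Cidec* and *Pde3b* were lower DEGs, and *Plin2* was higher. Over all genes tested, 2.01% were lower and 2.36% were higher. *Pde3b*, through which insulin restrains lipolysis, was 469.5, 484 and 709 against 439.9, 272 and 243 (-0.82), and it was not a DEG without mouse 3 of the 40% HFD group (-0.63) or mouse 2 (-0.73) or 3 (-0.65) of the 60% HFD group. *Plin2*, a droplet protein also made by macrophages full of lipid, was 303, 272 and 325 against 382, 492 and 617 (0.70, SE 0.32), and it was a DEG in 1 of the 6 fits that left out a mouse, that without mouse 1 of the 60% HFD group. In the other 5, its log2 fold change was 0.53 to 0.76. The count of lower DEGs in this list was 1 without mouse 3 of the 40% HFD group or without mouse 2 or 3 of the 60% HFD group, and 7 without mouse 2 of the 40% HFD group or mouse 1 of the 60% HFD group.

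Of 16 genes of fatty acid uptake and triglyceride synthesis, *Gpihbp1*, *Pck1* and *Fabp4* were lower DEGs, against 2.01% of all genes tested. *Gpihbp1*, which carries lipoprotein lipase across the capillary wall, was 33.1, 35.9 and 45.6 against 24.0, 24.1 and 16.5 (-0.80, SE 0.28), and was -0.67 and no DEG without mouse 3 of the 40% HFD group and -0.63 without mouse 3 of the 60% HFD group. *Pck1*, which makes the glycerol backbone of stored fat, was 2629, 2503 and 3866 against 1816, 1131 and 2278 (-0.81), and was a DEG in 2 of the 6 fits that left out a mouse. *Lpl*, the lipase itself, was 6540.2, 4690.2 and 7362 against 6858, 4840.3 and 4780.1 (-0.17, SE 0.33). None of the list was a lower DEG without mouse 3 of the 40% HFD group, and 1 was without mouse 2 or without mouse 3 of the 60% HFD group. In this list and in the lipolysis list, the kidney tubule score as a covariate left 1 lower DEG each.

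Of 14 genes of fatty acid synthesis, *Scd2* was a higher DEG and *Acacb* and *Acaca* were lower ones, against 2.36% and 2.01% of all genes tested. *Scd2*, a desaturase of stearoyl-CoA, was 116, 62.1 and 124 normalized CPM in the 40% HFD mice and 262, 212 and 248 in the 60% HFD mice, 2.47-fold higher (adjusted p = 0.484, limma). The acetyl-CoA carboxylase *Acacb*, which makes the malonyl-CoA that holds back fatty acid oxidation, was 196, 131 and 332 against 106, 70.7 and 67.2, 2.55-fold lower (-1.35, SE 0.41, adjusted p = 0.483). The groups overlapped in neither gene, and both met the criteria in all 6 fits that left out a mouse. *Acaca*, the other carboxylase, had a log2 fold change of -0.72 and was a DEG in 1 of these fits, and 1 gene of the list was a lower DEG in edgeR and with each or both scores as covariates. *Fasn*, fatty acid synthase, was 1501, 807 and 1736 against 1831, 1494 and 1553 (0.34, SE 0.61), and *Scd1*, at 19153 to 47694 in the 6 mice, had a log2 fold change of -0.23 (SE 0.50). The other 9 of the 14 genes were not DEGs. No gene of fatty acid oxidation (17 tested), oxidative phosphorylation (19), thermogenesis (8) or insulin signalling (15) was a DEG.

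Most B cell genes were lower DEGs in the 60% HFD mice. Of 12 genes tested, 9 were lower DEGs, against 2.01% of all genes tested, none was higher, and the median log2 fold change was -1.39. In all 9, the groups did not overlap, which was so for 7.22% of all genes in this direction. *Ms4a1*, the gene of CD20, was 1.83, 54.5 and 7.38 normalized CPM in the 40% HFD mice and 0.972, 0.562 and 0.947 in the 60% HFD mice (-2.59, SE 0.89, adjusted p = 0.484, limma). Mouse 2 of the 40% HFD group was thus far above its group, and mouse 1 was close to the 60% HFD mice. *Cd79a*, a subunit of the B cell receptor, was 1.39, 12.0 and 3.05 against 0.583, 0.321 and 0.947 (-1.65, SE 0.49, adjusted p = 0.476), with the same order of the 40% HFD mice. *Pax5*, the transcription factor of B cell identity, had a log2 fold change of -1.73, and that of *Cr2*, a complement receptor, was -1.45. *Cd79b* (-1.82), *Blk* (-1.19), *Fcrla* (-1.17) and *Ighd* (-1.33) were DEGs as well.

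Genes of antibody-secreting cells were not DEGs. *Ighm*, the heavy chain of IgM, was 176, 284 and 271 against 356, 221 and 384 (0.38, SE 0.43), and *Jchain* was 8.05, 43.3 and 24.0 against 12.8, 1.85 and 32.4 (-0.98, SE 0.94). *Cd22* had a log2 fold change of -1.03 (SE 0.57). *Cxcl13*, the chemokine that draws B cells into follicles, was 4.39, 77.7 and 28.8 against 2.07, 1.28 and 3.03 (-2.93, SE 1.04, adjusted p = 0.495), the largest fold change among 17 chemokines tested and the single DEG of that list. Its order over the 40% HFD mice was the same as that of *Ms4a1*. *Ltb*, which is needed for lymphoid tissue, had a log2 fold change of -0.88, and *Cxcr5*, the receptor of CXCL13, one of -0.98 (SE 0.53), each named after its value was seen.

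Without mouse 2 of the 40% HFD group, 6 B cell genes were lower DEGs and the median was -0.76, and without both libraries numbered 2, 2 were. In that fit without mouse 2, *Ms4a1* (-1.42), *Cd79b* (-0.98) and *Cxcl13* (-2.06, limma) were not DEGs. The number was 9 with both scores as covariates. Dendritic cell genes had no DEG among 10, and of 8 T and NK cell genes tested, *Il7r* was a higher DEG (1.51, SE 0.54), except without mouse 3 of the 60% HFD group (1.19), with the kidney tubule score as a covariate (1.14) or with both scores (1.06).

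**Figure D2:**
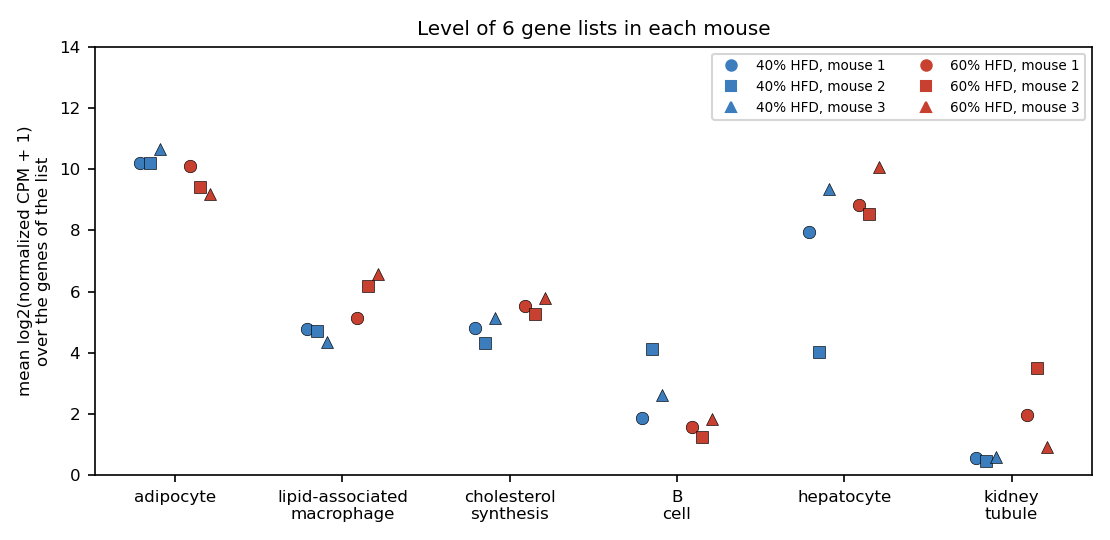
Mean of log2(normalized CPM + 1) over the genes of 6 lists in each mouse, with 1 point per mouse. The cholesterol synthesis and lipid-associated macrophage means of the 60% HFD mice lie above those of the 40% HFD mice, the adipocyte means lie below, and the B cell mean of mouse 2 of the 40% HFD group stands apart.

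Most general macrophage genes were not DEGs. Of 15, 1 was a higher and 3 were lower DEGs, against 2.36% and 2.01% of all genes tested, and the median log2 fold change was -0.10. *Adgre1*, which encodes F4/80, was 85.0, 94.6 and 59.0 normalized CPM in the 40% HFD mice and 111, 147 and 88.5 in the 60% HFD mice (0.53, SE 0.32, limma). *Csf1r*, the receptor that macrophages need to survive, was 295, 293 and 221 against 284, 305 and 175 (-0.11, SE 0.23). *Cd68*, a lysosomal protein, was 51.8, 32.7 and 20.1 against 48.3, 80.7 and 78.2 (1.03, SE 0.39), with an overlap of the groups. It was not a DEG without mouse 3 of the 40% HFD group (0.70) or mouse 2 (0.90) or 3 (0.92) of the 60% HFD group. The lower DEGs mark resident macrophages. *Lyve1* was 128, 188 and 85.4 against 106, 76.1 and 13.8 (-1.37, SE 0.55, adjusted p = 0.519), *Cd163* was 213, 262 and 189 against 152, 179 and 49.6 (-0.98), and *Timd4* was 5.05, 8.22 and 4.25 against 3.76, 3.77 and 1.70 (-0.75). Mouse 3 of the 60% HFD group had the lowest value in all 3. Without it, none of these 3 was a DEG, with a log2 fold change of -0.50 for *Lyve1*, -0.41 for *Cd163* and -0.48 for *Timd4*, and this was also so without mouse 2 of the 40% HFD group, with -1.09, -0.85 and -0.51. They were not DEGs without mouse 1 of that group either, a fit in which 1 gene of the list was a lower DEG. With the kidney tubule score as a covariate, 5 of the 15 genes were lower DEGs, and with the hepatocyte score none was.

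Among 15 endothelial genes, *Pecam1*, *Flt1*, *Emcn* and *Cldn5* were lower DEGs, against 2.01% of all genes tested, and none was higher. *Pecam1*, which encodes CD31, was 21.9, 24.9 and 28.1 against 13.5, 11.4 and 16.8 (-0.81, SE 0.29, adjusted p = 0.498), and the groups did not overlap, but it was not a DEG without mouse 2 of the 60% HFD group (-0.69). *Flt1*, a receptor of VEGF, had a log2 fold change of -0.77, *Emcn* one of -0.72 and the junction protein *Cldn5* one of -0.73. The count was 1 without mouse 3 of the 40% HFD group or without mouse 2 of the 60% HFD group, 2 without mouse 1 or 3 of the 60% HFD group, 0 with the kidney tubule score as a covariate and 2 with both scores. Of 10 smooth muscle and mural genes, *Rgs5*, a pericyte gene, was a lower DEG in limma (-0.65, SE 0.20, adjusted p = 0.484), and 5 genes were in edgeR. *Rgs5* was under the ratio without mouse 3 of the 40% HFD group (-0.52) or mouse 2 of the 60% HFD group (-0.51), and with the kidney tubule score as a covariate (-0.38).

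Among 20 genes of the matrix and its turnover, 3 were higher DEGs, against 2.36% of all genes tested. *Lum*, a proteoglycan that orders collagen fibrils, was 150.2, 101 and 71.1 against 166, 281 and 207 (1.05, SE 0.28, adjusted p = 0.467). The gelatinase *Mmp2* (1.11, SE 0.32) and *Mmp14*, which activates it (0.98, SE 0.30), were the others, and these 3 met the criteria in all 6 fits that left out a mouse. Without mouse 1 of the 40% HFD group, 5 genes of the list did. None of 17 collagen genes was a DEG, with a median log2 fold change of 0.22. Of 15 inflammatory cytokines and receptors tested, *Il1rn*, the antagonist of the interleukin-1 receptor, was a higher DEG at 1.68, 3.04 and 0.963 against 3.69, 8.67 and 31.4 (2.04, SE 0.74, adjusted p = 0.502). It was not one without mouse 3 of the 40% HFD group (1.79) or of the 60% HFD group (1.28), nor with the kidney tubule score (1.87) or both scores (1.67) as covariates, where 1 gene of the list was a lower DEG and none was higher. *Il1b* and *Il6* were below the filter on low values. *Tnf* was at most 1.26 in each mouse (0.09, SE 0.28), and *Ccl2*, which recruits monocytes, was 3.00, 5.19 and 1.04 against 7.19, 6.91 and 4.67 (0.95, SE 0.50, adjusted p = 0.586). The groups overlapped in both. *Ccl19* was 0.633 to 2.01 in the 6 mice (-0.16, SE 0.41).

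**Figure D3:**
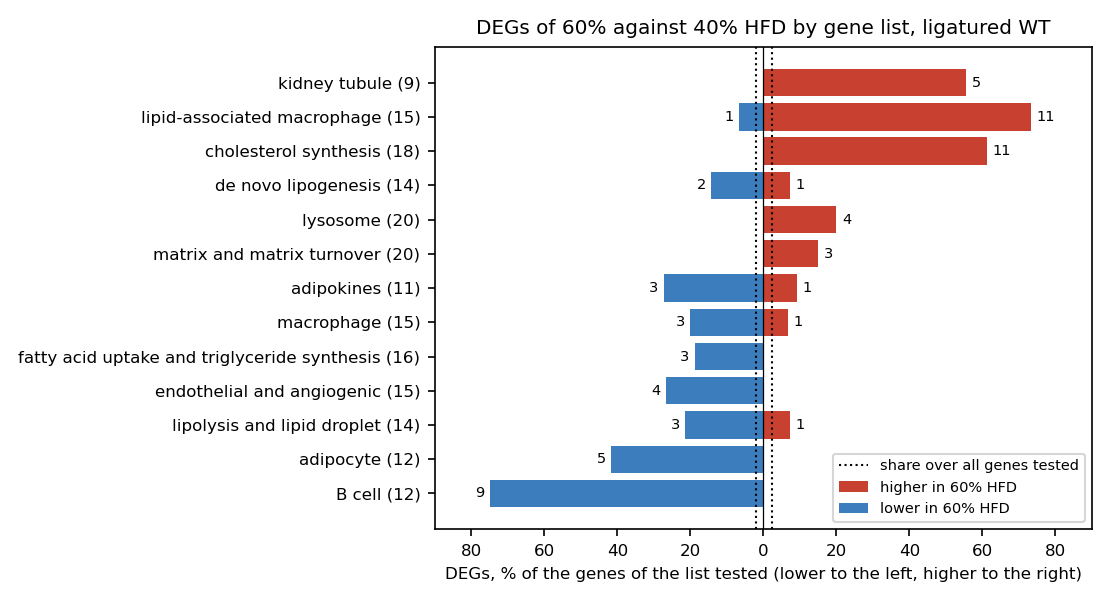
Share of the tested genes that were DEGs, for the lists with 3 or more DEGs, without the list of genes named by the study. Genes lower in the 60% HFD mice are to the left and higher genes to the right, with the number tested in brackets. Of all 44 lists, 17 had no DEG and are not shown. Dotted lines mark the share over all genes tested. The longest bars to the right are those of cholesterol synthesis (11 of 18) and lipid-associated macrophages (11 of 15), and the longest to the left is that of B cells (9 of 12).

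Among the remaining lists, single higher DEGs were the interferon-stimulated *Usp18* (0.84), *H2-DMb1*, which loads peptides on MHC class II (0.93), and the clock gene *Npas2*. The acute phase and exocrine pancreas lists had 1 higher DEG each (*Lcn2* and *Cela1*) and the skeletal muscle list 1 lower (*Acta1*), and none of these 3 lists had a DEG with both scores as covariates. *Npas2* was not a DEG in edgeR (1.26). No gene was a DEG among complement, TGF-beta, monocyte and neutrophil, proliferation, mesothelial, neuronal, epididymal, germ cell or adipocyte transcription factor genes.

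RNA of kidney and liver differed between single mice. The kidney tubule sum was 8.26 to 10.3 in the 40% HFD mice and 16.0 to 284 in the 60% HFD mice, without overlap. *Kap*, a protein of the male kidney tubule, was 0.293, 1.64 and 2.65 normalized CPM in the 40% HFD mice and 42.5, 131 and 5.75 in the 60% HFD mice (3.87, SE 1.36, adjusted p = 0.494, limma), the largest log2 fold change of this comparison among the genes named here. *Slc34a1*, the phosphate carrier of the proximal tubule, was 0, 0.316 and 1.04 against 17.8, 64.3 and 3.28 (3.64, SE 1.10). Of 9 kidney tubule genes tested, 5 were higher DEGs, against 2.36% of all genes tested. In all 5, mouse 2 of the 60% HFD group was the highest. Without that mouse, 1 was. The number was 2 without mouse 1 or without mouse 2 of the 40% HFD group, 8 without mouse 3 of the 60% HFD group, 0 without both libraries numbered 2 and 1 with both scores as covariates. Without mouse 2 of the 60% HFD group, *Kap* was not a DEG (2.89). *Acsm2*, an acyl-CoA ligase that was no member of a list, had a like order of mice, at 0.146, 0.190 and 0.802 against 15.7, 51.8 and 3.22. None of the 20 hepatocyte genes was a DEG, although all had a log2 fold change above 0 and the median was 2.00. *Ttr*, the transthyretin gene, was 263, 9.11 and 668 against 520.2, 463 and 1234 (2.46, SE 1.72, adjusted p = 0.648). Between the same diets, 4 of the 9 kidney tubule genes were higher DEGs in WT mice without ligature (median 1.38). In ligatured CCL19-KI mice, 0 were (median 0.36).

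The genes of smallest p belonged to none of the groups above. *Phlda1* (chromosome 10, 111506286 to 111508645, plus strand), a pleckstrin homology protein induced by growth factors and stress, was 4.54, 3.92 and 6.90 normalized CPM in the 40% HFD mice and 41.2, 31.8 and 17.2 in the 60% HFD mice, 4.89-fold higher (2.29, SE 0.34, adjusted p = 0.0566, limma). *Fam13a* (chromosome 6, 58932090 to 59024549, minus strand), a gene at a human locus for fat distribution and lung disease, was 335, 471 and 642 against 164, 82.0 and 65.3, 4.83-fold lower (-2.27, SE 0.35, adjusted p = 0.0566, limma). The ligatured ND mice had 952, 798 and 523 of *Fam13a* and 4.90, 4.81 and 6.27 of *Phlda1*. Over the diets, *Fam13a* was thus lowest under the 60% HFD, and *Phlda1* was alike under the ND and the 40% HFD. *Rnu3a*, a small nucleolar RNA of a family of near-identical copies whose reads cannot be told apart with certainty, was 8.49, 16.6 and 10.1 against 1.88, 0 and 0.884 (-2.81, SE 0.43, adjusted p = 0.0566).

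In all 6 fits that left out a mouse, 154 of the 727 DEGs met the criteria, 73 higher and 81 lower. Among the higher ones, *Ubd*, a ubiquitin-like protein induced by cytokines, was 10.8, 3.80 and 6.10 against 26.2, 90.5 and 51.0 (2.78, SE 0.55, adjusted p = 0.317, limma). *Tph2*, an enzyme of serotonin synthesis known from neurons, was 11.6, 4.43 and 3.29 against 16.1, 71.9 and 58.5 (2.66, SE 0.58), and the orphan receptor *Gpr50* was 1.02, 0.253 and 0.722 against 3.17, 9.63 and 16.2 (2.48, SE 0.70). In the ligatured ND mice, *Tph2* was at most 0.851 and *Gpr50* at most 0.0774. The transcription factor *Foxq1* was 0.659, 1.08 and 1.12 against 14.4, 8.83 and 3.91 (2.22, SE 0.51). *Atf3*, a transcription factor of the stress response, was 6.37, 9.17 and 3.05 against 14.9, 31.8 and 40.8 (2.06, SE 0.49), while the ND mice had 9.68 to 12.6. Of the 14 genes of the unfolded protein response, *Atf3* was the higher DEG and *Asns* a lower one (-0.85).

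Of the lower DEGs that met the criteria in all 6 fits, *Mmrn1*, a multimerin of lymphatic and blood vessels, was 18.2, 5.19 and 10.2 against 0.324, 1.36 and 0.694 (-2.66, SE 0.83). The protease *Pappa2*, which frees IGF from its binding proteins, was 7.54, 2.72 and 16.3 against 1.62, 1.04 and 0.189 (-2.14, SE 0.54). *Sox7*, an endothelial transcription factor, was 13.3, 5.44 and 17.2 against 3.82, 1.28 and 2.97 (-1.76, SE 0.54). *Lyz1*, which is near-identical to *Lyz2* and may share its reads, had a log2 fold change of -1.75, against 0.20 for *Lyz2*. *Hist2h2aa2*, a histone gene with a near-identical copy, had one of -1.86. The groups overlapped in none of these 5 named DEGs.

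Of 13 tested genes that the study named in eWAT, 7 were higher DEGs, against 2.36% of all genes, and none was lower. The study chose most of them as higher in ligatured CCL19-KI than in ligatured WT mice under the 40% HFD. The same 40% HFD WT libraries are the lower side of this comparison, so the count is not independent evidence of a direction. Beside *Atp6v0d2*, *Gpnmb*, *Spp1* and *Kap*, these higher DEGs were *Onecut1*, *Cyp2b9* and *Srp54b*. *Onecut1*, a hepatocyte transcription factor, was 2.20, 0.253 and 6.98 against 22.8, 54.7 and 17.1 (3.18, SE 1.10, adjusted p = 0.485, limma), and it was not a DEG without mouse 2 of the 40% HFD group (2.51) or with both scores as covariates (1.51). *Cyp2b9*, a cytochrome P450, was 1.24, 0.127 and 4.17 against 3.17, 19.7 and 78.7 (3.01, SE 1.28), with an overlap of the groups. It was a DEG in 2 of the 6 fits that left out a mouse, and was 1.98 without mouse 3 of the 60% HFD group. *Srp54b*, whose reads may be shared with its paralog *Srp54a*, was 15.7, 0.696 and 16.9 against 24.3, 27.5 and 25.9 (1.75, SE 0.65), and it was 0.63 without mouse 2 of the 40% HFD group. With both scores as covariates, 1 of the 13 was a DEG. The number was 4 without mouse 2 of either group.

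The same 2 diets were also compared in WT mice without ligature and in ligatured CCL19-KI mice. These comparisons share no mouse with the one above. Without ligature, 612 of 17852 genes were DEGs (3.43%), 468 higher (2.62%) and 144 lower (0.807%) under the 60% HFD. In ligatured CCL19-KI mice, 601 of 16653 were (3.61%), 442 higher (2.65%) and 159 lower (0.955%), and 16 had an adjusted p below 0.05 in limma, beside 9.21% with an unadjusted p below 0.05. Over the 16653 genes tested in all 3 comparisons, 393 genes were higher DEGs in ligatured WT, 456 in unligatured WT and 442 in CCL19-KI mice, and 334, 126 and 159 were lower ones. Of these higher DEGs of ligatured WT mice, 73 were higher DEGs without ligature, which is 18.6% of the former and 16% of the latter, and 76 were in CCL19-KI mice (19.3% and 17.2%). Of the lower DEGs, 12 were shared without ligature (3.59% and 9.52%) and 37 in CCL19-KI mice (11.1% and 23.3%). Some had the opposite direction: 7 of the lower DEGs were higher DEGs without ligature and 3 in CCL19-KI mice. Of the higher DEGs, 3 were lower DEGs without ligature and 4 in CCL19-KI mice. No gene had an adjusted p below 0.05 for a difference of the diet effect between mice with and without ligature or between the genotypes, in limma or in edgeR. At an unadjusted p below 0.05, 880 genes in limma (4.93%) and 912 in edgeR did so for the ligature, and 755 (4.53%) and 786 for the genotype.

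**Figure D4:**
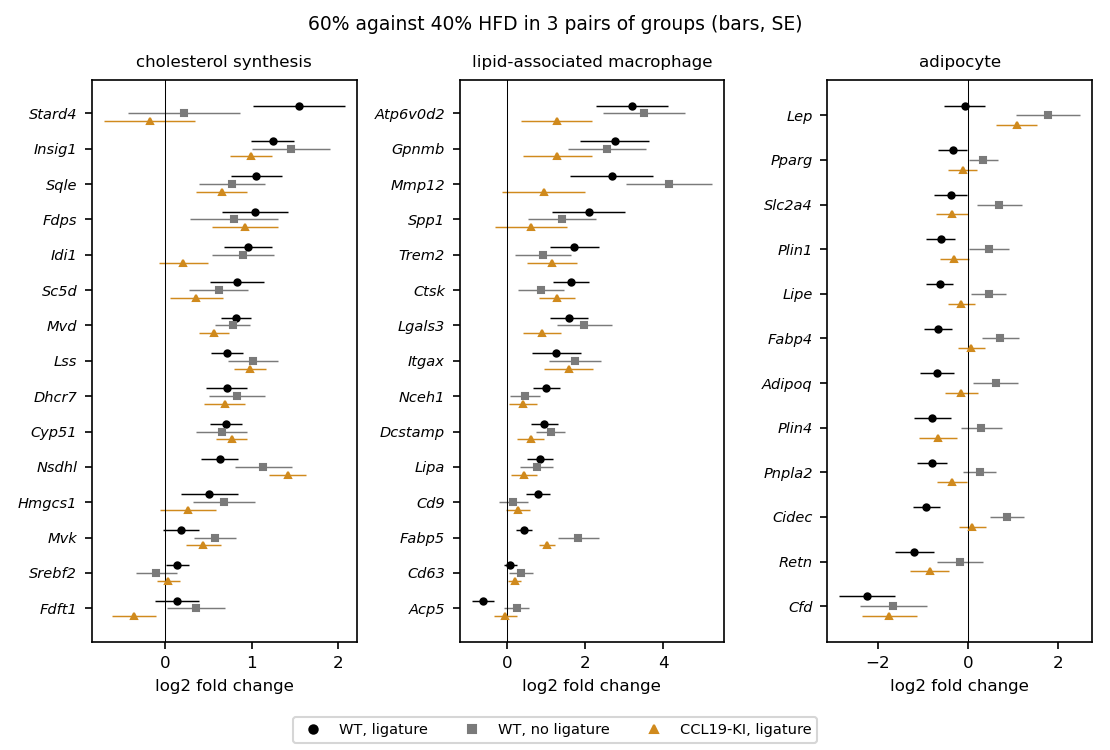
Log2 fold change of the 60% against the 40% HFD, with bars of 1 SE, in ligatured WT, unligatured WT and ligatured CCL19-KI mice, for 15 genes of the cholesterol synthesis list and the genes of the lipid-associated macrophage and adipocyte lists. The 3 estimates lie together for most cholesterol synthesis genes, whereas those of ligatured WT mice lie to the left of the others in the 12 adipocyte genes.

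Cholesterol synthesis genes were higher DEGs in each of the 3 comparisons, with 11 of 18 in ligatured WT, 7 in unligatured WT and 7 in ligatured CCL19-KI mice, and none was lower. The medians were 0.77, 0.71 and 0.50, against -0.029 over all genes without ligature and 0.014 in CCL19-KI mice. *Insig1*, *Lss*, *Cyp51*, *Dhcr7* and *Nsdhl* were DEGs in all 3 comparisons. *Insig1* had a log2 fold change of 1.46 (SE 0.45) without ligature and 0.99 (SE 0.24) in CCL19-KI mice. *Stard4* had 0.22 and -0.18 there, and the difference from CCL19-KI mice had an unadjusted p below 0.05. Lipid-associated macrophage genes were higher DEGs in 7 of 15 without ligature (median 1.12) and in 3 in CCL19-KI mice (median 0.89). *Atp6v0d2* had a log2 fold change of 3.50 (SE 1.05) without ligature and 1.26 (SE 0.92) in CCL19-KI mice, and *Gpnmb* had 2.56 and 1.28. None of the 15 had an unadjusted p below 0.05 for either difference between comparisons.

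The adipocyte genes had a median of another sign without ligature. Between mice with and without ligature, 2 of the 12 differed at an unadjusted p below 0.05, against 4.93% of all genes tested. Of the 727 DEGs of ligatured WT mice, 175 did so. The median of the 12 was -0.68 in ligatured WT, 0.47 in unligatured WT and -0.22 in ligatured CCL19-KI mice. Without ligature, the list summed to 6417 to 19798 normalized CPM under the 40% HFD and 17478 to 21558 under the 60% HFD. The 6417 was the lowest of all 36 libraries, and no fit without that mouse is given here for this list. *Cidec* was a higher DEG without ligature (0.87, SE 0.37), and its difference between mice with and without ligature was -1.79 (adjusted p = 0.938, limma), at an unadjusted p below 0.05. *Lep* was a higher DEG without ligature (1.78) and in CCL19-KI mice (1.08). *Lpl* was a higher DEG without ligature (1.33, SE 0.47), as were 4 others of the 16 genes of fatty acid uptake and triglyceride synthesis, of which none was higher in ligatured WT mice. *Cfd* was a lower DEG in all 3 comparisons, with -1.65 and -1.74 in the other 2. Of 10 genes whose expression goes with fat expansion, none was a DEG in ligatured WT mice and 4 were higher DEGs without ligature.

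B cell genes had no lower DEG in the other comparisons, where the medians were -0.06 without ligature and 0.68 in CCL19-KI mice. At p below 0.05 before adjustment, 8 of the 12 differed from the mice without ligature and 9 from CCL19-KI mice. Over all genes tested, 4.93% and 4.53% did so. Of the 727 DEGs of ligatured WT mice, 175 and 137 did. These differences contain the comparison in which the list had its DEGs, so the counts of 8 and 9 are partly fixed in advance. They also rest on the same 6 ligatured WT mice and are not independent. *Cd79a*, which had -0.18 and 0.68 in the other comparisons, was among the 8 and the 9. No fit of these differences without mouse 2 of the ligatured 40% HFD group is given here. Endothelial genes had no DEG in either of the other comparisons, and *Pecam1* had 0.19 and 0.34. *Phlda1* had 0.10 without ligature and 0.63 in CCL19-KI mice, and *Foxq1* had -0.47 and 0.41. Both genes differed from each of the other comparisons at p below 0.05 before adjustment. They were named for their difference in ligatured WT mice, which is part of these tests, so this does not show that they are particular to those mice. *Fam13a* was a lower DEG in both, with -1.33 (SE 0.64) and -1.73 (SE 0.35). *Ubd*, *Tph2* and *Gpr50* were higher DEGs in both, with 4.19, 3.91 and 3.28 without ligature and 3.27, 3.13 and 2.93 in CCL19-KI mice.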

How the data were processed

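eWAT RNA was rRNA-depleted, made into directional libraries and sequenced by the authors. Per the labels and the submitters' processing notes, Trimmomatic 0.38, Bowtie2, RSEM 1.3.0 and edgeR were used. The notes name GRCm39 and the methods mm10, so the build of the counts is unsettled, and positions were taken from GENCODE M21 (GRCm38). The authors deposited 1 table of edgeR-normalized CPM (unit: signal) for 24750 genes in 36 libraries. Every value was a whole multiple, within 0.01, of the value of 1 read, and the reads so recovered were used for an edgeR 4.0.16 quasi-likelihood alternative. Read totals given here are these recovered sums.

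Genes that reached 1 normalized CPM in 3 or more libraries were tested with limma 3.58.1 (R 4.3.3, moderated with a trend, two-sided, Benjamini-Hochberg) on log2(value + 1) in a fit of the 18 ligatured mice with 6 groups. The comparison without ligature and the ligature interaction came from a fit of all 36 mice with 12 groups, under the same filter. DEGs followed the study's thresholds. Samples were grouped by their labels, with 3 mice per group. The fit was checked on simulated data.

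The 44 gene lists and the genes named were chosen with earlier results of these data known. Named were the genes of the study, the members of each list of smallest p, and the non-overlapping DEGs of largest log2 fold change, overall and among those that held without any 1 mouse. Other list members, and *Acsm2*, *Ltb* and *Cxcr5*, were named after their values were seen. Alternatives varied the pseudocount, filter, normalization, model, covariates and mice. Hepatocyte and kidney tubule scores are means of log2 values over their lists. Some members of these lists entered the counts but are not reported by name here.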

Additional observations from a re-analysis of the deposited data

How the results depend on the processing

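Of the 76 named DEGs, none changed direction in any fit and 16 met the criteria in every one. Some of them were named because their groups did not overlap or because they held in the fits that left out a mouse. These counts are therefore partly fixed by that choice. The 727 DEGs became 404 with a pseudocount of 5, 425 with a filter at a mean of 5, 452 with the kidney tubule score as a covariate and 280 with a ratio of 2. They became 425 without both HFD libraries numbered 2, an alternative chosen after seeing the data, as was the fit with both scores. Leaving out 1 mouse gave 442 to 1022, with 442 without mouse 3 and 502 without mouse 2 of the 60% HFD group and 1022 without mouse 3 of the 40% HFD group. The count at an adjusted p below 0.05 was 0 in the limma fit, 1 with a pseudocount of 5 (*Rnu3a*), 1 with sample weights (*Phlda1*), 1 with the hepatocyte score (*Cyp3a11*), 2 with both scores (*Cyp3a11* and *Cyp51*) and 0 to 5 when 1 mouse was left out. The 5 were called without mouse 1 of the 60% HFD group, and without its mouse 3, 1 was. The 612 DEGs of WT mice without ligature became 351 with a pseudocount of 5, 396 with a filter at a mean of 5, 1043 with the kidney tubule score, 1003 with both scores and 244 with a ratio of 2, and 252 to 917 when 1 mouse was left out, with 252 without mouse 1 of the 60% HFD group. *Spp1* had 1.66 with the hepatocyte score, 1.53 with the kidney tubule score, 1.28 with both, 1.93 without both libraries numbered 2 and 1.23 to 2.99 without 1 mouse, and was a DEG in none of the first 4. The cause was not tested. edgeR on recovered reads gave 845 DEGs. The same-numbered mice deviated together with correlations of -0.10, 0.37 and 0.44, and differently numbered mice with -0.48 to 0.13. The main fit did not pair mice by number, and the origin of this pattern was not tested. A replicate block gave 721 DEGs, 8 lower adipocyte DEGs in place of 5, and 6 lower lipolysis DEGs in place of 3. With 12009475 to 16690271 reads, 3 reads were worth 0.189 to 0.241 normalized CPM, and 3 mice per group set the precision.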

Other observations

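RNA of the tissues beside the depot varied between the 6 mice of both diets. The summed level of the epididymis genes was 225, 1.83 and 1.44 normalized CPM in the 40% HFD mice and 0.324, 42.7 and 0.630 in the 60% HFD mice. The sum of the germ cell genes was 4.24, 65.3 and 0.642 against 0.260, 28.8 and 0.126, and it was highest in mouse 2 of each group. No gene of either list was a DEG.

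With the hepatocyte score as a covariate, limma gave -2.96 for the diet term of *Cyp3a11*, a liver cytochrome P450 (adjusted p = 0.000139). This log2 term holds for mice of equal score and does not show that the measured level was lower. The levels of *Cyp3a11* and its difference without covariates are not given here. Of 19 genes of major urinary proteins and cytochromes P450, none was a lower DEG without covariates and 3 were with this score. The medians were 1.42 and -0.19. With both scores as covariates, *Cyp51* was higher (0.86, adjusted p = 0.0215, limma). Both fits with covariates take the level of other organs from the libraries under test.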
